A study of Mus musculus with 42 samples.

Results

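The genes of the aminoacyl-tRNA synthetases, 36 in all, were followed through arsenite stress, recovery from it, muscle differentiation and TIA1 immunoprecipitation in 2 mouse cell lines. They were taken by gene symbol as 20 synthetases of the cytosol and 16 of the mitochondria, and all 36 were found both among the 13494 genes with a poly(A) site (PAS) in the 3′READS data and among the 12364 gene symbols in the RNA-seq data. The cells were NIH3T3, an embryonic fibroblast line, and C2C12, a myoblast line that fuses into myotubes when serum is lowered. Non-stressed cells (NT) were compared with cells given 250 µM sodium arsenite for 1 h (AS) and with stressed cells returned to normal medium for 4, 8, 12 or 24 h. The labels gave the strain C57BL/6 for every sample and named no transgene or deletion. The study described replicates of total RNA, of RIP and of C2C12 cells as biological, and the labels add nothing on how each was grown, so the p-values measure the spread between these samples.

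The data comprised 38 libraries of 3′READS, which counts reads that end at a PAS, and 4 libraries of poly(A)-selected RNA-seq, counted over coding sequence. In NIH3T3 cells, total RNA was taken from NT and AS cells in replicates 1, 2 and 4, with the recovery times in replicate 4 alone, and 4-thiouridine (4sU, 50 µM) was given for 1 h before harvest to separate newly made RNA (4sU) from the flow-through (Ft) in 1 culture each of NT and AS at 0 h and 4 h. RNA-seq had 1 library each of the same 4 conditions. TIA1, an RNA-binding protein of stress granules, was immunoprecipitated with its antibody (RIP) from NT and AS cells in 2 replicates with matched cytoplasmic input. In C2C12 cells, total RNA of proliferating myoblasts (MB) and of differentiated myotubes (MT) was sequenced in 2 replicates each, and cytoplasmic RNA of each state in 1 library each of NT and AS at 0 h and 4 h.

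The 3′READS libraries held 1048335 to 6974664 reads each, of which 84.1% to 94.0% lay in genes, and the RNA-seq libraries held 17137579 to 25194062. All 6 fibroblast markers had reads in NIH3T3 cells, and the myoblast genes Myod1 and Myf5 had none there. The summed level of the differentiated muscle markers was 78.9 to 342.0 CPM in MB libraries and 8848.6 to 13393.7 CPM in MT libraries. The arsenite-induced genes Hmox1, Hspa1a, Hspa1b, Mt1 and Mt2 were all higher 4 h after stress in the fit described below. In the RNA-seq library of AS at 4 h a few transcripts took a large share of the reads, among them 3.91% for Hsph1 and 3.2% for Hspa1b, and levels were therefore scaled by the median ratio over genes. Scaled by library total instead, the median of all genes at 4 h moved to -0.76 on the log2 scale in RNA-seq, -0.43 in Ft, -0.31 in 4sU, -0.31 in MB, -0.23 in the time course and -0.17 in MT, so all changes below are relative to the median gene.

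Most synthetases join 1 amino acid to its tRNAs, and so set which amino acid a codon stands for. Cytosolic and mitochondrial translation use separate enzymes for most amino acids, the mitochondrial ones being encoded in the nucleus by genes whose symbols end in 2, whereas Gars and Kars each make both forms. Several cytosolic enzymes (Dars, Eprs, Iars, Kars, Lars, Mars, Qars and Rars) sit together in a multi-synthetase complex held by the scaffold proteins Aimp1, Aimp2 and Eef1e1, and the others are free. Many cytosolic synthetase genes are known targets of ATF4, the transcription factor made when phosphorylation of eIF2α slows general translation, and arsenite is a classical trigger of that phosphorylation. ATF4 binds, with C/EBP partners, to a composite element whose core can be written TGATGNAA.

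The promoter sequences that hold this element are shown here because the genes concerned are 4 of the 8 that were higher during recovery, and 1 that was not. RefSeq promoters of 300 bases (GRCm38.p6, 250 bases before to 50 after the gene start) were found for 27 of the 36 genes. TGATGNAA on either strand was present in 5 of the 13 cytosolic promoters (38.5%), in 0 of the 14 mitochondrial promoters, and in 1096 of all 27025 promoters (4.06%). For each of the 5 genes a line gives 30 bases in the direction of the gene with the match in capitals, which reads TTNCATCA where it lies on the other strand.
Aars, chr8:111033840-111033869, plus strand, 9 bases after the start: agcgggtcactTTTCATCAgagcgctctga
Gars, chr6:55037960-55037989, plus strand, 30 bases before the start: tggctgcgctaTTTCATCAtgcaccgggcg
Tars, chr15:11399655-11399684, minus strand, 15 bases before the start: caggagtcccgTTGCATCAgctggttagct
Yars, chr4:129189895-129189924, plus strand, 3 bases after the start: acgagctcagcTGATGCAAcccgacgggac
Iars, chr13:49682126-49682155, plus strand, 7 bases after the start: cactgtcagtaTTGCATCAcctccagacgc
The promoters of Dars, Eprs, Farsa, Farsb, Kars, Mars, Qars and Sars held no match. There was no entry for Cars, Hars, Lars, Nars, Rars, Vars, Wars, Hars2 or Pars2. A match describes these letters only.

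The 3′ ends that 3′READS counted were dominated by 1 site in most cytosolic genes and in fewer mitochondrial ones. Over all libraries, at least 87.3% of a gene's reads lay at its main PAS in 18 of the 20 cytosolic genes, and the exceptions were Sars with 43.4% and Tars with 63.1%. Of the 16 mitochondrial genes, 7 had 41.3% (Iars2) to 79.2% (Nars2) there. Of the 36 main sites, 22 (61.1%) had AATAAA and 5 (13.9%) ATTAAA in the last 30 bases, against 59.7% and 14.7% of the main sites of all 13494 genes. The ends of 2 genes described below are shown with the signal in capitals (mm9, in the direction of the gene).
Aars, chr8:113579440-113579469, plus strand: tgcagaaAATAAAaaggaccatgtgcaata
Pars2, chr4:106327858-106327887, plus strand: gattgAATAAAgtcaagcctttggggtgaa
The annotated span of Aars also contained 4 PASs that lay 1970 to 2095 nt past its main site, where RefSeq places the next gene, Exosc6. They held 16.3% of the reads in that span and were counted for Exosc6, a choice made after the data were seen.

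In RNA-seq of unstressed NIH3T3 cells, every cytosolic synthetase mRNA had a higher level per coding length than every mitochondrial one. Per coding length, the median level in RNA-seq of NT cells at 0 h was 93.4 RPKM for the 20 cytosolic genes and 4.37 RPKM for the 16 mitochondrial genes. Nars, the asparagine enzyme, stood at the top with 246 RPKM, followed by Eprs (170 RPKM), which joins both glutamate and proline, and Sars (166 RPKM), the serine enzyme. The cytosolic series ended with Cars (31.4 RPKM), Mars (31.0 RPKM) and Lars (27.9 RPKM). The most abundant mitochondrial genes were Iars2 (23.7 RPKM), Tars2 (17.4 RPKM) and Rars2 (16.9 RPKM), and the least abundant were Pars2 (1.62 RPKM) and Mars2 (1.29 RPKM). Iars2 overlaps Rab3gap2 at its 3′ end on the other strand, and as the strand setting of the RNA-seq counts was not given in the sources used here, its value and its distance from the cytosolic genes are uncertain. In 3′READS, which counts transcript ends and needs no length, the classes overlapped in total RNA, where the average level was 7.32 log2 CPM for Yars2 against 4.64 for Lars and 4.86 for Qars. The second untreated library kept the 2 classes apart, and no cytosolic gene differed past 1.5-fold between the 2 untreated libraries, against 3.0% of genes higher and 3.17% lower. Of the neighbours at the lower end, Lars and Mars exchanged places between these libraries, with 32.8 and 28.9 RPKM in the second.

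The question for recovery was how the synthetase mRNAs stood 4 h after stress, relative to NT cells of the same time. In RNA-seq, 10 of the 20 cytosolic genes were past 1.5-fold higher, where 26.2% of the 10624 genes measured were, and 1 was past 1.5-fold lower, where 24.8% of genes were. Of the 15 mitochondrial genes with enough reads, 1 was past 1.5-fold higher and 10 were past 1.5-fold lower. The median log2 ratio was 0.67 for cytosolic and -1.04 for mitochondrial genes, beside 0.00 over all genes. With 1 library a condition these ratios have no test. Scaled by library total, the cytosolic median turned to -0.14 with 5 genes higher and 8 lower, and the mitochondrial median was -1.80 with 13 of 15 lower. Scaling moves all genes by nearly the same amount, so it can change the place of the classes relative to 0 but hardly the distance between them.

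The 4 synthetase genes with the largest ratios were all cytosolic. Aars, the alanine enzyme, had 454 CPM in NT cells at 0 h, 569 in AS cells at 0 h, 398 in NT cells at 4 h and 2099.9 in AS cells at 4 h, a log2 ratio of 2.40 at 4 h. Sars had 267, 305, 269 and 1311 CPM in the same order, a log2 ratio of 2.29, and Rars, the arginine enzyme, had 273, 321, 282 and 1039 CPM (1.88). Nars had 413, 445, 463 and 1442 CPM (1.64). In all 4 genes the 3 other libraries lay close together and the AS library at 4 h stood alone. Next came Yars (tyrosine, log2 ratio 1.48), Gars (glycine, 1.20), Tars (threonine, 1.08), Cars (cysteine, 1.01), Iars (isoleucine, 0.87) and Wars (tryptophan, 0.81). By library total, Aars (1.60), Sars (1.48), Rars (1.08), Nars (0.84) and Yars (0.68) remained past 1.5-fold higher and Gars (0.39), Tars (0.28) and Cars (0.21) above 0.

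The free enzymes and those of the complex overlapped, from -0.76 to 2.40 and from -0.55 to 1.88, and the difference between them was not tested. Of the 12 free enzymes, 8 were past 1.5-fold higher and 1, the valine enzyme Vars, was lower (log2 ratio -0.76), with a median of 1.05. Of the 8 enzymes of the complex, 2 were past 1.5-fold higher, Rars and Iars, and the median was -0.02. Dars (-0.55), Qars (-0.45), Kars (-0.17) and Mars (-0.16) of the complex and Farsa (-0.47) of the free enzymes lay below 0 without passing 1.5-fold.

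At the other end stood mitochondrial genes with few reads. Hars2, the mitochondrial histidine enzyme, had 6.68 CPM in NT cells at 0 h, 7.07 in AS cells at 0 h, 8.81 in NT cells at 4 h and 1.20 in AS cells at 4 h, from 147, 181, 175 and 20 reads. Its log2 ratio at 4 h was -2.46, taken with 0.5 CPM added to each level. The 95% counting interval, taken from the reads without that addition, ran from -3.63 to -2.21. Aars2 had 15.8, 12.7, 14.2 and 3.53 CPM in the same order (-1.86), Nars2 had 6.22, 7.81, 6.40 and 1.85 CPM (-1.55), and Lars2 had 11.3, 9.14, 8.81 and 3.11 CPM (-1.37). Again it was the AS library at 4 h that differed from the other 3. Pars2, the proline enzyme of the mitochondria, had 57, 33 and 36 reads in the first 3 libraries and was not listed in the AS library at 4 h, where the smallest listed count was 5 reads. Wars2 went the other way (log2 ratio 0.76).

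**Figure D1:**
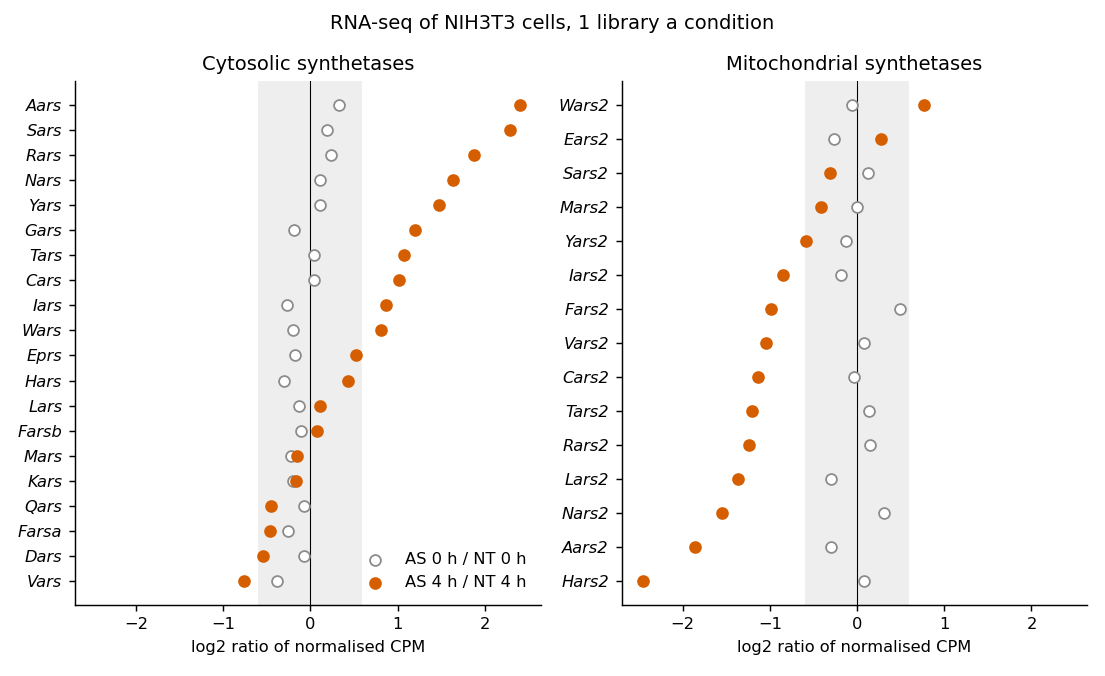
The plot gives the log2 ratio of normalised CPM, AS over NT, in RNA-seq of NIH3T3 cells at 0 h (open circles) and at 4 h of recovery (filled circles) for the 20 cytosolic genes and the 15 mitochondrial genes with at least 40 reads in the 2 libraries of each ratio, with the range within 1.5-fold shaded. At 0 h the points of all but Pars2, which is not drawn, lie in the shaded range, and at 4 h they run from 2.40 (Aars) to -0.76 (Vars) in cytosolic and from 0.76 (Wars2) to -2.46 (Hars2) in mitochondrial genes.

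Directly after 1 h of arsenite these differences were not seen in RNA-seq. No cytosolic gene passed 1.5-fold in either direction and 1 mitochondrial gene did (Pars2, log2 ratio -0.79), against 8.4% of 10727 genes higher and 4.07% lower. The medians were -0.12 for cytosolic and -0.02 for mitochondrial genes.

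The time course in total RNA asked how long the difference lasted. Its 5 stressed libraries share 1 NT library, so the times are not independent of each other. Directly after arsenite no synthetase gene was past 1.5-fold, against 6.31% of 6212 genes higher and 9.93% lower. At 4 h, 11 of 20 cytosolic genes were past 1.5-fold higher and 1 lower, against 21.6% and 18.8% of 6668 genes, and the cytosolic median log2 ratio was 0.61. At 8 h there were 3 higher (Rars 1.10, Aars 0.81, Wars 0.65) and 2 lower (Vars -1.33, Mars -0.93), against 12.4% and 12.8% of genes. At 12 h 1 gene was higher (Rars 0.74) against 7.77% of genes and 0 were lower against 8.9%, and at 24 h none was in either direction, against 5.19% of genes higher and 7.18% lower.

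Rars had 363 CPM in NT cells, 399 after 1 h of arsenite, then 1235, 779, 606 and 452 CPM at 4, 8, 12 and 24 h of recovery. Sars had 282, 269, 863, 375, 312 and 213 CPM at the same points, and Gars had 351, 361, 963, 524, 393 and 364. Each was highest at 4 h and near its NT level at 24 h. Nars (183, 236, 742, 267, 223 and 189 CPM) and Aars (189.8, 198, 555, 332, 232 and 191) had the same shape. Cars (377, 375, 685, 466, 355 and 271 CPM), Yars (164, 133, 303, 163, 129.9 and 113) and Tars (129, 144, 217, 143, 120.4 and 133) differed less from NT. Vars ran the other way, with 150.0, 157, 92.9, 59.2, 118 and 116 CPM, lowest at 8 h. Of the 8 mitochondrial genes with enough reads at 4 h, all were below 0 and 5 were past 1.5-fold lower, with a median log2 ratio of -0.92. By library total 7 cytosolic genes were higher and 3 lower at 4 h, 5 and 2 at 8 h, and 8 of 8 mitochondrial genes were lower at 4 h. By median-ratio scaling, 4 of 10 mitochondrial genes were lower at 8 h and 1 was higher (Mars2 0.88). At 12 h 2 and 1 of 10 were, and at 24 h 0 and 2 of 9 (Mars2 0.94 and Iars2 0.69). Mars2 had 12.5, 9.54, 12.5, 23.4, 20.4 and 24.4 CPM over the series and Pars2 had 25.0, 25.8, 11.8, 16.3, 12.6 and 21.4.

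**Figure D2:**
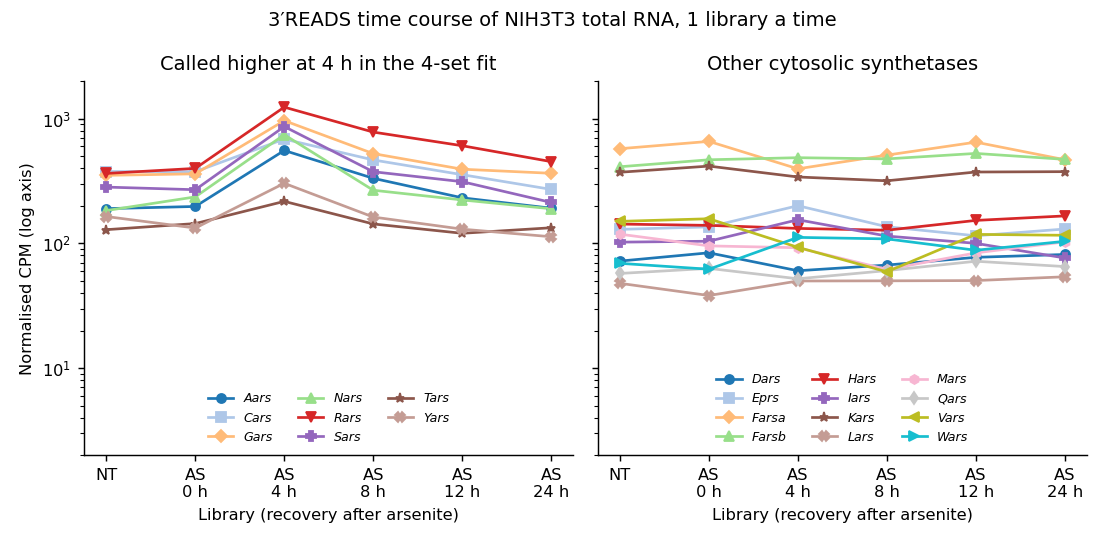
Normalised CPM (log axis) of the 20 cytosolic genes is plotted for NT cells, AS cells at 0 h and 4, 8, 12 and 24 h of recovery, 1 library each (3′READS, total RNA, replicate 4). The 8 genes on the left, those called higher at 4 h in the fit across 4 sets, which includes these libraries, peak at 4 h, as in Rars at 1235 CPM, whereas most of the 12 genes on the right stay near their NT level and Vars dips to 59.2 CPM at 8 h.

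To test the difference with replication, the 4 sets of 3′READS libraries that held NT, AS and 4 h recovery (the time course, 4sU RNA, and C2C12 cytoplasmic RNA of MB and of MT) were fitted together with the set as a block, taking the sets as replicates. In this edgeR quasi-likelihood fit of 15 libraries, 8 of the 20 cytosolic synthetase genes were higher at 4 h than in NT cells at an adjusted p under 0.05 and 0 were lower, where 8.64% of the 9993 genes tested were higher and 5.51% lower. Of the 16 mitochondrial genes 0 were higher and 2 were lower. The median log2 fold change was 0.50 for cytosolic, -0.41 for mitochondrial and -0.06 for all genes. The 8 were 7 of the 12 free enzymes and 1 of the 8 of the complex.

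Sars was the gene with the smallest adjusted p. In 4sU RNA it had 231 and 156 CPM in NT cells at 0 h and 4 h, 289.7 CPM after arsenite and 447 CPM at 4 h of recovery. In MB the values were 153, 127, 171 and 509 CPM and in MT 184, 163, 220.4 and 493 CPM, in the same order. With the time course given above, the recovery library was the highest in each set, and the fit gave a log2 fold change of 1.56 (SE 0.163, adjusted p = 1.8e-05), which is 2.95-fold. Gars had 244, 226, 278 and 444 CPM in 4sU RNA, 219, 241, 238 and 503 in MB, and 231, 252, 269 and 539 in MT, a log2 fold change of 1.15 (SE 0.130, adjusted p = 3.9e-05). Aars had 428, 569, 897 and 1433 CPM in 4sU RNA, 119.6, 47.9, 207 and 498 in MB, and 206, 203, 161 and 617 in MT. Its 2 untreated MB libraries differed from each other more than those of the other genes here, and its log2 fold change was 1.81 (SE 0.256, adjusted p = 0.00025), 3.50-fold. With the Exosc6 sites counted for Aars it was 1.22, on the same side of the threshold.

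Nars was the most abundant of the 8 in 4sU RNA, with 1039, 1120.0, 1432 and 2087 CPM, and had 1561, 1000.1, 1519 and 3335 CPM in MB and 1251, 1504, 1602 and 2513 in MT (log2 fold change 1.27, adjusted p = 0.00039). Rars had 199, 228, 407 and 559.6 CPM in 4sU RNA, 263, 182, 310.4 and 594 in MB, and 198, 152, 138 and 291 in MT (1.31, adjusted p = 0.00053). In both genes the recovery library was again the highest of each set. Yars had 551, 457, 680.5 and 897 CPM, 235, 216, 238 and 512, and 199, 214, 282 and 411 in the 3 sets (0.99, adjusted p = 0.00036). Tars had 83.7, 106, 90.8 and 179 CPM, 56.8, 39.3, 75.0 and 114, and 54.3, 58.9, 72.9 and 170.4 (1.13, adjusted p = 0.00036).

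Cars was the weakest of the 8. It had 127, 108, 146 and 222 CPM in 4sU RNA, 175, 163, 185 and 309 in MB, and 139, 162, 303 and 182 in MT, where the library taken directly after arsenite, not the recovery library, was the highest. Its log2 fold change was 0.76 (SE 0.192, adjusted p = 0.015), and the adjusted p was 0.066 without the time course, 0.076 without 4sU and 0.086 without MB. The cytosolic genes next in order that did not pass the test were Wars (0.49, adjusted p = 0.058), Eprs (0.54, 0.059), Farsb (0.42, 0.067) and Iars (0.51, 0.084). The lowest was Kars, the lysine enzyme, at -0.37.

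The 2 mitochondrial genes that were lower had few reads. Pars2 had 54.8, 32.7, 20.1 and 15.1 CPM in 4sU RNA (NT 0 h, NT 4 h, AS 0 h and recovery), 25.0, 25.8 and 11.8 CPM in the time course (NT, AS 0 h and recovery), 16, 13.1 and 14.2 CPM in the first 3 MB libraries, and 12.4, 9.22 and 9.34 CPM in the first 3 MT libraries. It was not listed in either C2C12 library of 4 h recovery, so its fitted log2 fold change of -2.16 (SE 0.554, adjusted p = 0.016) depends on the prior count. Mars2, the mitochondrial methionine enzyme, had 71.1, 63.7, 56.0 and 33.5 CPM in 4sU RNA, 12.5, 9.54 and 12.5 in the time course, 16, 24.3, 15.8 and 4.01 in MB and 18.1, 35.3, 14.9 and 3.53 in MT (-1.45, SE 0.377, adjusted p = 0.018). It was lower in the C2C12 and 4sU libraries and not in the time course, and in Ft of the same cultures as 4sU it was higher at 4 h (24.4 CPM) than in NT cells (17.0 CPM), a log2 ratio of 0.51. Without the MB or without the MT set neither gene passed the test. Mars2 also did not without 4sU (adjusted p = 0.069) or with Ft in its place (0.13), and Pars2 did not against the untreated library of the same time only (0.11).

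**Figure D3:**
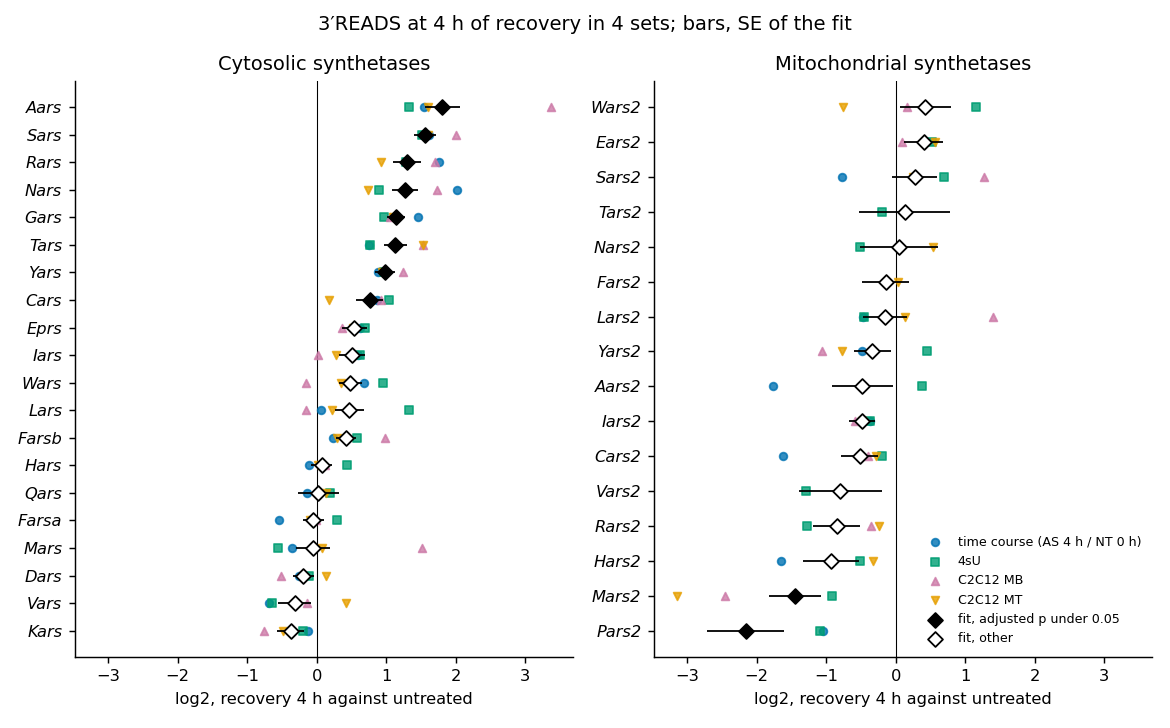
Diamonds give the log2 fold change of 4 h recovery against untreated cells in the fit across 4 sets of 3′READS libraries, with bars of 1 SE and filled where the adjusted p was under 0.05. Coloured points give the ratio within each set against its untreated library of the same time (NT 0 h in the time course). For Aars, Gars, Nars, Rars, Sars, Tars and Yars every set lies at 0.74 or higher, Mars spreads from -0.56 (4sU) to 1.52 (MB), and in mitochondrial genes the diamonds run from 0.42 (Wars2) to -2.16 (Pars2).

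Counting each single comparison at 4 h (RNA-seq, time course, 4sU, Ft, MB and MT), Aars, Gars, Nars, Rars, Sars, Tars and Yars were past 1.5-fold higher in 6 of 6, and Cars in 5 of 6. Wars and Iars were past it in 4 of 6 and Eprs in 3 of 6, whereas Dars, Farsa, Kars, Qars and Vars were in none. Among mitochondrial genes, Cars2 and Iars2 were below 0 in 6 of 6 and Rars2 and Hars2 in 5 of 5, and Pars2 and Vars2 were past 1.5-fold lower in 3 of 3. Wars2 was past 1.5-fold higher in 3 of 5 and lower in 1 (MT, -0.76). 4sU and Ft came from the same cultures, so these are not 6 independent cultures. In the single comparisons 15.9% (MT) to 26.7% (Ft) of all genes were past 1.5-fold higher, and 16.6% (MT) to 24.8% (RNA-seq) lower. How many of all genes passed in every comparison was not counted, so the counts across comparisons have no share of genes beside them.

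Set against AS cells at 0 h in the same fit, 7 cytosolic genes were higher at 4 h and 0 members were lower, where 5.14% of genes were higher and 3.33% lower. They were Gars (log2 fold change 1.05, adjusted p = 0.00074), Sars (1.27, 0.0011), Yars (0.80, 0.010), Nars (1.02, 0.011), and Tars (0.86), Aars (1.31) and Rars (1.02), each at 0.014. This contrast shares its recovery libraries with the one above. Without the time-course set 2 genes passed the test, and without the MB set 4 did.

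For stress itself, AS against NT, no synthetase gene passed in any of the 3 tests. In total RNA with 3 libraries a group, edgeR called 0 of 9103 genes (0.0%) and DESeq2 0, with 19 and 28 genes at an unadjusted p under 0.05. In simulated data without differences between replicate numbers, this edgeR test recovered 11.9% of 1.5-fold and 44.8% of 2-fold changes. Changes of that size could therefore be missed, and in the data themselves so could larger ones. Atf3 (8.00-fold), Hspa1b (7.40-fold) and Hmox1 (4.82-fold) were not called there. With the replicate number as a block, since same-numbered samples deviated together, edgeR called 28 genes higher and 1 lower (0.319%), none of them a synthetase. Aars had 382, 240.2 and 189.8 CPM in NT replicates 1, 2 and 4 and 957, 403 and 198 CPM in the AS replicates of the same numbers, so that it was above its partner in each pair and the groups overlapped (log2 fold change 0.94, SE 0.634, adjusted p = 1.0, and 0.75, SE 0.212, adjusted p = 0.35 with the block). Sars varied more between replicates than with stress, with 78.5, 342 and 282 CPM in NT and 125, 288 and 269 CPM in AS cells. Pair by pair, 2 cytosolic genes were past 1.5-fold higher in replicate 1 (Aars 1.33, Sars 0.67) and 1 lower (Eprs -0.63), against 8.21% and 7.51% of genes, and in replicate 2 there were 1 higher (Aars 0.74) and 2 lower (Qars -0.77, Vars -0.72), against 8.61% and 6.97%. By library total these were 2 and 2 in each replicate. In cytoplasmic input 0.146% of genes were higher and 0.0104% lower, and in the 4-set fit 0.41% and 0.14%, with no member in either. The cytosolic median in the 4-set fit was 0.22 and the mitochondrial median -0.01.

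RNA made in the last hour was compared with the flow-through of the same cultures. Directly after arsenite, 4 of 20 cytosolic genes were past 1.5-fold higher in 4sU RNA, where 15.3% of genes were, and 0 in Ft, where 9.4% were. The 4 were Qars (log2 ratio 1.21, from 7.95 CPM in NT to 19.0 CPM), Aars (1.07), Rars (1.03) and Lars (0.69). At 4 h, 12 were past 1.5-fold higher in 4sU RNA (23.8% of genes) and 13 in Ft (26.7%), and 1 was lower in each (23.4% and 22.9%). The cytosolic median was 0.73 in 4sU RNA and 0.99 in Ft. By library total, 8 were higher and 2 lower in 4sU RNA at 4 h, 9 higher and 4 lower in Ft, and 3 higher and 2 lower in 4sU RNA directly after arsenite. Between the 2 untreated cultures, taken at 0 h and 4 h, no cytosolic gene was past 1.5-fold in either fraction, against 7.3% of genes higher and 8.07% lower in 4sU RNA and 6.31% and 5.54% in Ft. Sars in Ft had 328, 235, 309 and 1007 CPM in NT 0 h, NT 4 h, AS 0 h and recovery, where 4sU RNA had 231, 156, 289.7 and 447. Rars in Ft had 212, 189, 267 and 745 CPM, so that directly after arsenite it was above NT in 4sU RNA (407 CPM) and less so in Ft.

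Of the mitochondrial genes, 5 of 13 were past 1.5-fold lower in 4sU RNA directly after arsenite (15.6% of genes) and 0 of 16 in Ft (10.5%). At 4 h, 4 of 15 were lower and 2 higher in 4sU RNA, and 7 of 14 lower and 1 higher in Ft, and by library total 8 and 1, and 11 and 0. The mitochondrial median log2 ratio at 4 h by median-ratio scaling was -0.365 in 4sU RNA and -0.606 in Ft. Within the recovery culture, the log2 ratio of Ft over 4sU was above 0 in 4065 of all 8578 genes. The ratio was above 0 in 20 of 20 cytosolic genes, 11 of them past 1.5-fold higher (28.0% of genes). Of 12 mitochondrial genes 1 was above 0 and 5 were past 1.5-fold lower (32.9% of genes). In the NT culture at 4 h the ratio was above 0 in 4366 of all 9059 genes, in 15 of 20 cytosolic and in 8 of 16 mitochondrial genes. There 8 cytosolic genes were past 1.5-fold higher and 3 mitochondrial genes lower (26.9% and 32.2% of genes). At 0 h 8 cytosolic genes were past it higher and 2 mitochondrial genes lower in NT cells (27.3% and 31.5%), and in AS cells 5 cytosolic and 8 mitochondrial genes were higher and 2 of each lower (25.1% and 30.9%). By library total 16 of 20 cytosolic and 0 of 12 mitochondrial genes were above 0 in the recovery culture, and 11 of 20 and 5 of 16 in the NT culture at 4 h. These ratios were not adjusted for the number of uridines, so only the change within a gene can be read.

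In C2C12 cytoplasmic RNA at 4 h, 10 of 19 cytosolic genes were past 1.5-fold higher in MB (23.9% of genes) and 7 of 20 in MT (15.9%), and 1 (Kars, log2 ratio -0.76) and 0 were lower (21.1% and 16.6%). The 7 in MT were Aars, Sars, Tars, Gars, Yars, Rars and Nars, and MB had these with Mars (1.52), Farsb (0.98) and Cars (0.92). By library total 9 were higher and 2 lower in MB, and 6 and 1 in MT. Of 9 mitochondrial genes in MB, 4 were above 0, 2 were past 1.5-fold higher and 3 lower, with a median log2 ratio of -0.358. Of 12 in MT, 5 were above 0, 0 were past 1.5-fold higher and 3 lower, with a median of -0.262. By library total 2 mitochondrial genes were higher and 5 lower in MB, and 0 and 4 in MT. The difference between the 2 states was not tested, since each had 1 library. In MB the 2 untreated libraries themselves differed past 1.5-fold in 5 of 19 cytosolic genes (13.6% of genes higher and 12.9% lower), whereas in MT 0 of 20 did (6.21% and 6.21%). Directly after arsenite 4 cytosolic genes were past 1.5-fold higher in MB (Vars, Qars, Aars and Eprs) and 0 lower, against 12.6% and 8.22% of genes. In MT 3 were higher (Cars, Farsa and Iars) and 2 lower (Kars and Qars), against 14.0% and 12.2%.

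Differentiation of C2C12 cells was tested in total RNA with 2 libraries of each state. Here 15 cytosolic genes were higher in MT and 3 were lower (Qars, Farsa and Vars), where 32.5% of 10094 genes were higher and 29.4% lower by the edgeR test. Among mitochondrial genes 5 were higher and 6 lower. The median log2 fold change was 1.08 for cytosolic, 0.15 for mitochondrial and 0.04 for all genes. Hars (-0.06) and Kars (0.11) did not pass the test.

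Nars had 1088 and 1268 CPM in MB and 3848 and 3665 in MT, a log2 fold change of 1.67 (SE 0.095, adjusted p = 3.7e-10). Sars rose from 226 and 245 to 800.4 and 698 CPM (1.67, adjusted p = 1e-09), Wars from 128 and 103 to 394 and 419 (1.82, adjusted p = 1.4e-09), and Lars, the leucine enzyme, from 83.0 and 68.0 to 251 and 264 (1.78, adjusted p = 3.3e-09). The libraries of the 2 states did not overlap in any of these. Eprs rose from 332 and 331 to 785 and 854 CPM (1.31), Yars from 378 and 408 to 849 and 888 (1.14), Cars from 244 and 235 to 543 and 474 (1.09), and Gars from 313 and 262 to 609 and 590.1 (1.06). Lars, Wars and Eprs, which did not pass the test during recovery, were among the 5 with the smallest adjusted p here.

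Further down, Iars rose from 122 and 103 to 279.7 and 228 CPM (1.18), Tars from 70.9 and 96.2 to 174 and 218 (1.22), and Aars from 175 and 268 to 471 and 584 (1.25, adjusted p = 3.6e-06). The 3 that were lower were Farsa, from 464 and 511 to 325 and 279.8 CPM (-0.69), Vars, from 299.6 and 252 to 171 and 172 (-0.68), and Qars, from 21.7 and 26.1 to 16.1 and 13.6 (-0.70). Farsa encodes the α and Farsb the β subunit of the phenylalanine enzyme, and Farsb was higher, from 182 and 177 to 274 and 284 CPM (0.63, adjusted p = 4.4e-05). Rars rose from 223 and 274 to 435 and 433 CPM (0.80), Mars from 138 and 159 to 249.9 and 268 (0.80), and Dars from 272 and 249.9 to 332 and 374 (0.44, adjusted p = 0.0014, and 0.051 without MT replicate 3). Of the mitochondrial genes, Nars2 rose from 6.24 and 7.32 to 32.0 and 34.2 CPM (2.27, SE 0.236, adjusted p = 5.2e-07), and Rars2 rose from 45.3 and 42.6 to 86.0 and 71.0 CPM (0.84). Fars2 (0.84), Ears2 (0.83) and Mars2 (0.64) were higher as well. Sars2, from 33.8 and 32.1 to 11.8 and 13.9 CPM (-1.35), Wars2, from 22.0 and 23.3 to 11.8 and 9.35 (-1.11), and Cars2, from 67.3 and 75.0 to 38.2 and 32.0 (-1.03), were lower, as were Pars2 (-0.74), Hars2 (-0.45) and Yars2 (-0.34).

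DESeq2 called 18 synthetase genes higher and 5 lower, where it called 2457 of all 10094 genes higher and 2156 lower. Under it Fars2 (adjusted p = 0.071) and Mars2 (0.097) were not called among the higher genes, nor Hars2 (0.27), Yars2 (0.082), Pars2 (0.16) and Qars (0.16) among the lower ones. Without MT replicate 3, Dars, Hars2, Pars2, Qars and Yars2 were not called in the edgeR fit, without MB replicate 3 Pars2 and Qars, without MB replicate 2 Hars2, and without MT replicate 2 Hars2, Mars2 and Yars2.

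The cytoplasmic libraries of untreated cells gave lower ratios for most cytosolic genes, a difference that was not tested. The median log2 ratio of MT over MB was -0.18 at 0 h and -0.02 at 4 h over 19 cytosolic genes, with 2 and 4 past 1.5-fold higher (27.6% and 29.9% of genes) and 2 and 2 lower (21.3% and 23.4%). Nars had 1561 CPM in MB and 1251 in MT at 0 h, Sars had 153 and 184, and Eprs, which was above 0 in both fractions, had 76.2 and 146. The cytoplasmic libraries are labelled replicate 1 and the total ones 2 and 3, and fraction and replicate cannot be told apart. In the MT libraries the summed fibroblast markers were also higher, 3666.5 to 16239.6 CPM against 376.7 to 2433.4 in MB, with Thy1 at 0 in both, and their part in the result was not tested. In such bulk samples fewer cells of a type and less RNA per cell cannot be told apart.

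**Figure D4:**
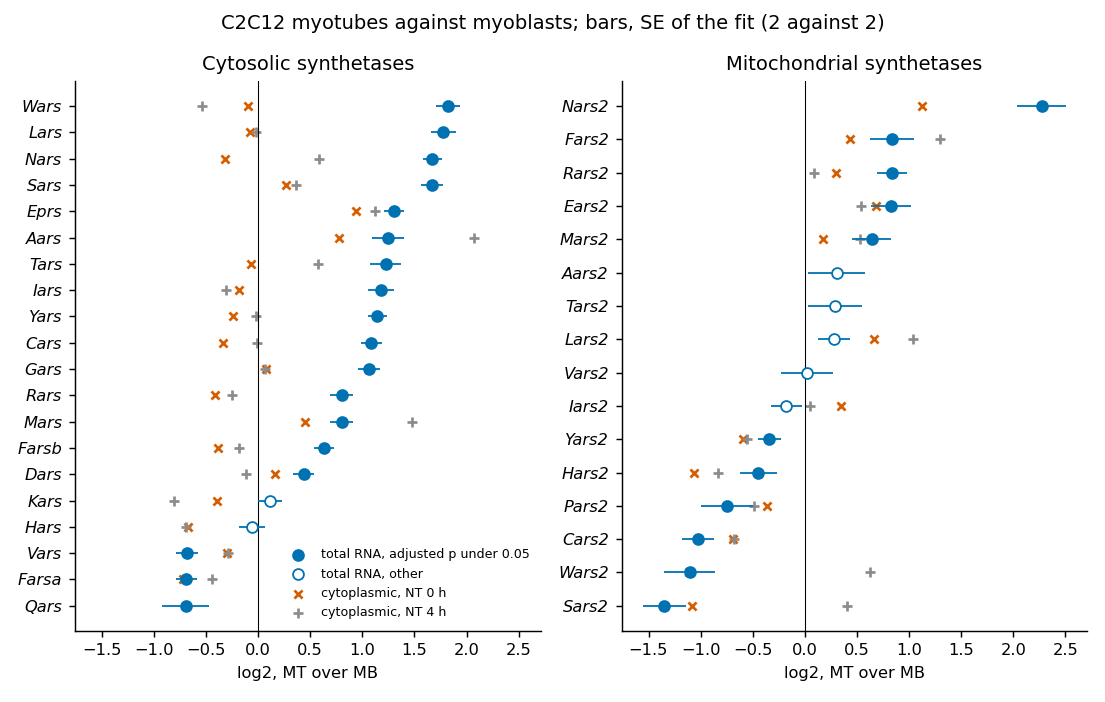
Circles give the log2 fold change of MT over MB in total RNA (2 libraries against 2, bars of 1 SE, filled where the adjusted p was under 0.05), and crosses and plus signs the ratio in the single cytoplasmic libraries of untreated cells at 0 h and 4 h. In total RNA the cytosolic genes run from 1.82 (Wars) to -0.70 (Qars) and the mitochondrial genes from 2.27 (Nars2) to -1.35 (Sars2), whereas many cytoplasmic points of the cytosolic genes lie near or below 0.

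The TIA1 RIP asked which cytoplasmic mRNAs are enriched or depleted with this protein. In NT cells, 0 synthetase genes were higher in RIP than in input and 9 cytosolic genes were lower, where 9.0% of 9584 genes were higher and 9.76% lower, in the edgeR fit with the replicate number as a block. All 20 cytosolic genes lay below 0 (median log2 fold change -1.08), as did 13 of the 16 mitochondrial genes (median -0.66), of which 0 passed. In AS cells 4 cytosolic genes were lower, where 7.69% of genes were higher and 8.48% lower, and 18 of 20 lay below 0 (median -0.83). These calls rested on the block and on single libraries. Without the block 0 synthetase genes were called in either condition. In NT cells 0 were called without replicate 2 of the input and 2 without replicate 2 of the RIP. In AS cells 0 were called without replicate 2 of the input or of the RIP, and 1 without replicate 1 of either.

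Hars, the histidine enzyme, had 184 and 168 CPM in NT input and 71.8 and 38.2 CPM in NT RIP (log2 fold change -1.77, SE 0.330, adjusted p = 0.0047). Rars had 912 and 1290.5 against 339 and 473 CPM (-1.44, adjusted p = 0.0099), and Yars 237 and 377 against 118 and 143 CPM (-1.22, adjusted p = 0.016). In each the 2 RIP libraries were below both inputs. Kars had 146 and 186 against 70.8 and 77.4 CPM (-1.15, adjusted p = 0.023), Sars 104 and 132 against 50.5 and 42.3 (-1.36, adjusted p = 0.024), and Wars 36.2 and 29.3 against 14.9 and 6.72 (-1.66, adjusted p = 0.045). The other 3, with adjusted p from 0.040 to 0.048, were Farsa with 266 and 504 against 202 and 129.9 CPM (-1.21), Cars with 174 and 249.8 against 129.7 and 64.7 (-1.23), and Nars with 593 and 648 against 437 and 219.9 (-1.02).

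In AS cells Kars had 166 and 236 CPM in input and 62.2 and 112 in RIP (-1.23, adjusted p = 0.019). Farsb had 353 and 207 against 128 and 63.9 CPM (-1.59, adjusted p = 0.025), Rars 1266 and 1486 against 794 and 518 (-1.05, adjusted p = 0.044), and Nars 749.6 and 578 against 440.2 and 229 (-1.04, adjusted p = 0.048). Kars, Rars and Nars were called in both conditions. Qars, with 10 and 17 reads in NT input, was not listed in either NT RIP library, so its fitted value is no bound. The test of the difference, AS minus NT, called 0 of 9584 genes (0.0%) with edgeR, 422 having an unadjusted p under 0.05, and 13 higher and 12 lower with DESeq2, none a synthetase. For Hars it was 0.99 (SE 0.455, adjusted p = 1.0).

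**Figure D5:**
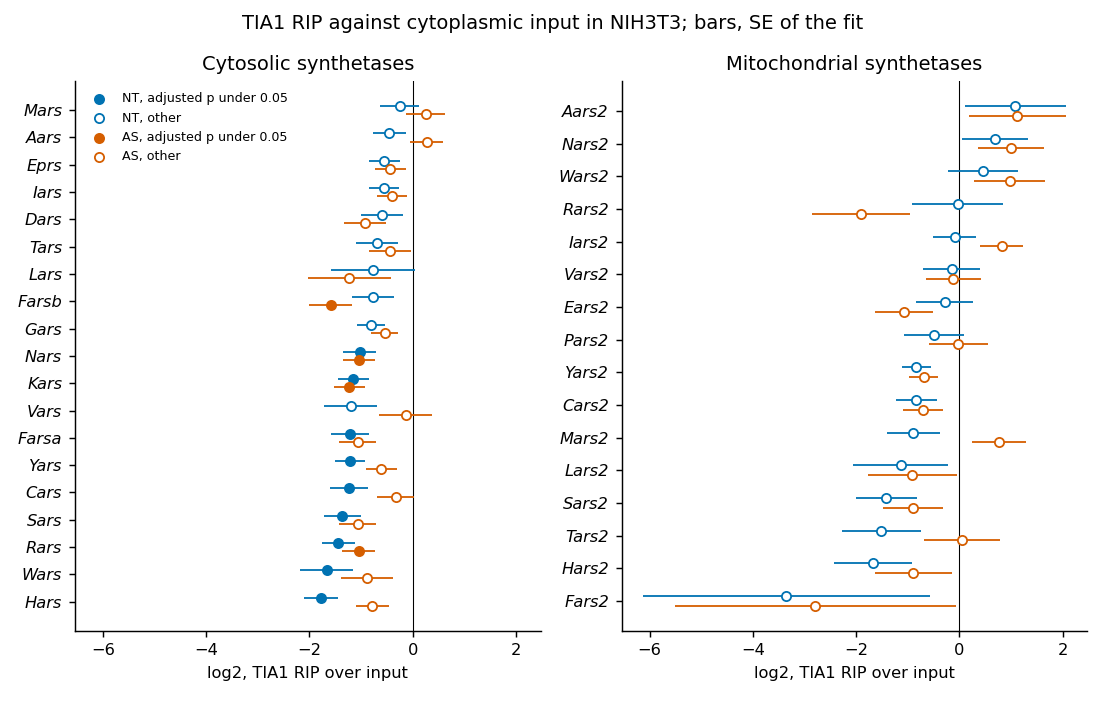
The log2 fold change of TIA1 RIP over cytoplasmic input is plotted with bars of 1 SE for NT cells (blue) and AS cells (orange), filled where the adjusted p was under 0.05. Of the cytosolic genes drawn (Qars, unlisted in NT RIP, is left out) all lie below 0 in NT cells, down to -1.77 (Hars), and the mitochondrial genes spread on both sides with wider bars.

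Alternative 3′ ends could be measured in few synthetase genes, since the 2 most abundant PASs of the last exon each needed more than 5 reads in both libraries. The change was taken as RED, the log2 ratio of the distal to the proximal isoform in treated minus control cells. In 4sU RNA at 4 h the median RED was -0.12 over 9 members and -0.41 over 3641 genes, in the time course at 4 h 0.36 over 4 members and -0.28 over 1642 genes, in MB at 4 h 1.03 over 3 members and -0.46 over 1718 genes, and in MT at 4 h 0.17 over 5 members and -0.30 over 2499 genes. Many of these members had their 2 sites close together. In MB the distances were 38 nt (Sars), 43 nt (Tars) and 63 nt (Iars2). In MT these genes were joined by Sars2 (26 nt) and Lars2 (614 nt). The paper found greater shortening with longer distances between the sites. The medians of members and of all genes were therefore not taken at like distances. Nars, whose sites lie 558 nt apart, had less of the distal isoform at 4 h. In total RNA of replicate 4 its distal share was 46.6% in NT cells, 40.9% after arsenite and 28.6%, 38.0%, 42.7% and 41.9% at 4, 8, 12 and 24 h of recovery. In 4sU RNA it was 95.5% in NT cells and 90.3% at 4 h, a RED of -1.18. Replicate 4 stood apart from replicates 1 and 2, where the distal share of Nars in NT cells was 83.8% and 84.1%. After arsenite it was 86.2% and 85.1% there, higher than in NT cells, whereas in replicate 4 it was lower. These values have no test.

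Other genes of the pathway were read from lists with fixed members. During 4 h recovery in the 4-set fit, 18 of the 26 tested genes of the ATF4 and amino acid response were higher and 0 lower, led by Atf3 (log2 fold change 6.21, adjusted p = 2.7e-06) and Slc7a11, the cystine transporter (5.69, adjusted p = 9.1e-06), with a median of 1.14. Atf4 itself was 0.61 (adjusted p = 0.024). Directly after arsenite 5 of the 26 were higher, Atf3, Ddit3, Ppp1r15a, Chac1 and Atf4 (0.89, adjusted p = 0.021). None of the 3 scaffold genes of the synthetase complex, the 5 cytosolic elongation factors or the 9 tested mitochondrial translation factors passed at 4 h, and the median of the last was -0.35, beside -0.41 for the mitochondrial synthetases.

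In differentiated C2C12 cells 26 of 28 ATF4 list genes were higher, among them Trib3 (5.56, adjusted p = 1.1e-14) and Nupr1 (4.05, adjusted p = 2.5e-14), and 1, the glutamine transporter Slc38a2, was lower (-0.46). Of the scaffold genes Aimp1 was higher (0.79) and Aimp2 lower (-0.37), of the elongation factors 2 were higher and 3 lower, and of 9 mitochondrial factors 3 and 3. In the RIP of NT cells Aimp2 (-1.97), Eef1d (-2.97) and Eef1b2 (-2.26) were lower than in input, and of 26 ATF4 list genes 1 was higher and 2 lower, against 1 and 4 in AS cells. The convergent neighbour of Mars, the ATF4-induced gene Ddit3, overlaps its 3′ end on the other strand. How RNA-seq reads of the 2 strands were counted was not given in the sources used here, so the RNA-seq value of Mars is uncertain.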

How the data were processed

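Expression was measured by 3′READS (38 libraries) and strand-specific RNA-seq (4 libraries). Per the paper's methods, the authors trimmed adapters with cutadapt, mapped 3′READS to mm9 with Bowtie2, kept PAS reads and clustered neighbouring sites, and mapped RNA-seq with STAR and summed reads over coding sequence. The deposited values are raw read counts per PAS position and per gene. No listed count was below 5 reads, so 0 means unlisted.

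Each of 99725 PAS positions was assigned to the gene (GENCODE M1, mm9) whose span, or the 4 kb after it up to the next gene, contained it on its strand: 73774 were assigned, 1051 in 2 or more genes were left out, and 4 in the Aars span were given to Exosc6. Counts were summed per gene, and 1 RNA-seq symbol listed more than once was left out. Of RefSeq (GRCm38.p6) only promoters and gene order were used. Levels are CPM after median-ratio scaling, and RPKM divides them by coding length.

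Replicated comparisons used the quasi-likelihood test of edgeR 4.0.16 (R 4.3.3), two-sided, with Benjamini-Hochberg adjustment over all genes, and a call is an adjusted p under 0.05. DESeq2 1.42.0, TMM, other filters and gene spans, the block and each library left out were alternatives. In single-library comparisons, log2 ratios of CPM + 0.5 were taken for genes with at least 40 reads in the 2 libraries, and a call is past 1.5-fold, which understates low genes. Intervals cover counting error only and are taken without the added 0.5 CPM.

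The replicate number was a block in the RIP fit, where same-numbered samples deviated together (r = 0.227 to 0.472). In total RNA it was an alternative, and same-numbered NT and AS samples correlated at 0.851, 0.85 and 0.777. Scripts were tested on simulated data. Per-library values are given for members called in a replicated fit, at least the 12 with the smallest adjusted p, and for the 4 largest and 4 smallest RNA-seq ratios at 4 h. Members and lists were chosen with earlier results of these data known. Some items are not reported here.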

Additional observations from a re-analysis of the deposited data

Results flagged for a closer look

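Mars and Lars2 were flagged by a search of all members, at 0 h and at 4 h, for opposite directions in the cell lines. Every comparison at 4 h of recovery in NIH3T3 cells (RNA-seq, time course and 4sU) went one way. Both C2C12 comparisons (MB and MT) went the other. How many of all genes split in this way was not counted, so the flags have no share of genes beside them. For Mars, the cytosolic methionine enzyme, the median log2 ratio was -0.36 in NIH3T3 cells (-0.56 to -0.16) and 0.80 in C2C12 cells (0.08 to 1.52). For Lars2, the mitochondrial leucine enzyme, it was -0.47 (-1.37 to -0.45) and 0.77 (0.14 to 1.40). The difference between the cell lines was not tested for either gene, and each ratio rests on 1 library a condition. The 2 untreated MB libraries differed from each other in both genes, with a log2 ratio of NT 4 h over NT 0 h of -1.41 for Mars and -1.09 for Lars2.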

How the results depend on the processing

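Calls of the single members kept their direction under every alternative run, 607 on the same side of the threshold and 104 losing it. Counts of called members moved as follows. For TIA1 RIP in NT cells (9 lower), no downstream extension gave 5 and leaving out single libraries 0 to 8 lower and 0 to 1 higher. In AS cells (4 lower), TMM gave 2 and leaving out libraries 0 to 5. The fit with no replicate block gave 0 lower in both, with 164 and 77 genes lower in all. For C2C12 differentiation (9 lower, 20 higher), DESeq2 gave 5 lower and 18 higher, with 2156 and 2457 of all 10094 genes. Leaving out libraries gave 5 to 8 lower (5 without MT replicate 3) and 19 to 20 higher. The replicate block, where numbers are only shared (r = 0.053), gave 3299 genes higher and 2982 lower, and it changed no other call. For 4 h recovery (2 lower), Ft in place of 4sU gave 5, the untreated library of the same time only gave 1, and leaving out sets gave 0 to 2 lower and 7 to 8 higher. Against AS (7 higher, 0 lower), leaving out sets gave 2 to 7 higher and 0 to 3 lower (3 without 4sU), Ft 4 lower and DESeq2 2 lower. By library total the cytosolic median at 4 h was -0.14 in RNA-seq, reversed from 0.67, 0.40 in 4sU, 0.51 in Ft, 0.36 in the time course, 0.57 in MB and 0.15 in MT. The mitochondrial medians by library total were -1.80 in RNA-seq, -0.70 in 4sU, -1.07 in Ft, -1.17 in the time course, -0.70 in MB and -0.44 in MT. By median-ratio scaling they were -1.04, -0.365, -0.606, -0.915, -0.358 and -0.262 in the same order. Both untreated libraries summed gave cytosolic medians of 0.74 in RNA-seq and 0.66 in MB, where a minimum of 10 reads gave 0.64. With more than 20 reads of each isoform the median RED after arsenite in replicate 4 was -0.33 in place of 0.38. Counting the Exosc6 sites for Aars, chosen after seeing the data, changed no count of called members and moved Aars at 4 h from 1.81 to 1.22. The causes were not tested. Mitochondrial members with under 40 reads in a pair of libraries could not be compared, and 8 to 16 of 16 were compared in each.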
